A study of Mus musculus with 2 samples.

Results

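Genes for the movement of ions and water across colonocytes were described here in single cells of the mouse colon crypt. The group comprised 9 genes with known roles, which were the carbonic anhydrases Car1, Car2 and Car4, the anion exchanger Slc26a3, the chloride importer Slc12a2, the water channels Aqp4 and Aqp8, the potassium channel Kcnq1 and the sodium pump subunit Atp1b1. They were 9 of the 19294 gene symbols counted, and each of the 9 had a row in the count matrix. The genes were followed across the 3 epithelial subclusters that the authors drew, called stem cells, secretory precursors and absorptive precursors, with intraepithelial lymphocytes (IELs) as the background for stray RNA.

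The study asked which epithelial cells make up the colonic population that never switched on the Tcf4 promoter. Crypt cells were sorted from untreated Tcf4GfpCre/+ RosamTmG/+ mice on the C57BL/6 strain, between 4 and 10 months of age, and profiled by Drop-seq, in which each unique molecular identifier (UMI) counts 1 captured transcript. The labels name 2 pools, the first made of samples 1 to 3 and the next of 4 to 6. Each label names both Tcf4 lineage-negative (Lin-) cells and double-positive (DP) cells, which the study calls MIX. Every group described below shares this genotype, strain, age and lack of treatment. Several features limit the cells as a model. The Tcf4 promoter drives the Cre, so that Lin- cells are those whose promoter has not switched the membrane reporter from red to green, and DP cells carry both colors. The Cre sits in the Tcf4 gene itself, so that the animals are heterozygous, with 1 allele that carries the insertion. The mice were pooled, and human cells were added before droplet capture, which the paper describes as done separately for the Lin- and the MIX cells. The barcodes form a set X1 and a set X2, which could not be matched to the pools or to the sorts. All cells were therefore 1 sample, without replicates, and no test was made between subclusters. The subclusters were also drawn from the genes of these same cells, so that each difference between them is a description. Intervals are exact 95% intervals for counting error only.

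The 3 subclusters held 349490 UMIs. Stem cells were 32 cells with 69046 UMIs and a median depth of 995.5, secretory precursors were 32 cells with 128664 UMIs and a median of 1820.5, and absorptive precursors were 42 cells with 151780 UMIs and a median of 1939.5. The shallowest cell of each had 570, 548 and 530 UMIs, and the deepest secretory and absorptive precursors had 19945 and 23171. A small number of deep cells weighed on each sum. The 7 cells above 10000 UMIs gave 33.6% of the UMIs of stem cells (1 cell), 44.0% of those of secretory precursors (4 cells) and 29.0% of those of absorptive precursors (2 cells). Set X1 held 79 of the cells, and set X2 held 15 stem cells, 4 secretory precursors and 8 absorptive precursors. No barcode occurred in both sets. Some barcodes of the same set and subcluster differed at 1 base, and joining them left 93 cells (29 stem cells, 26 secretory and 38 absorptive precursors).

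Marker genes were set against the labels of the subclusters. The epithelial list of 6 genes, led by Pigr, stood at 21956 UMIs per 1000000 (CPM) in stem cells, at 16531 CPM in the secretory and 23402 CPM in the absorptive group, against 143 CPM in the 362 IELs. Of 9 goblet and secretory genes, led by Spink4, the sum was 65978 CPM in secretory precursors, against 19697 CPM in stem cells and 8216 CPM in the absorptive group. These sums rest on few cells in the groups where the list is low. In stem cells, the cell above 10000 UMIs held 1195 of the 1360 UMIs, and without it the level was 3599 CPM. In absorptive precursors, 513 of the 1247 UMIs lay in the deepest cell and 502 in another. In secretory precursors, 2 of 32 cells had no UMI of the list, and both are among the cells that the authors also list as IELs. The 8 absorptive genes, led by Lypd8 in absorptive precursors, summed to 8124 CPM there, to 2619 CPM in secretory precursors and to 2752 CPM in stem cells, and Krt20, which marks mature surface cells, had 0 UMIs in the other subclusters and 16 in absorptive precursors, in 3 of 42 cells and 12 of them in 1 cell. The 5 stem and proliferation genes, led by Anp32b, summed to 4128 CPM in stem cells, 909 in the secretory and 962 in the absorptive group. The subclusters were drawn from these same cells and genes, so that the order of these lists restates the labels. Some deep cells held genes of 2 lists, such as the absorptive precursor above and a secretory precursor of 12713 UMIs with 133 UMIs of the absorptive list. The part of doublets was not tested.

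Other cell types that crypt preparations can hold were searched for in the same way. The 5 T cell genes had no UMI in stem cells, 1 in a secretory precursor and 11 among absorptive precursors, where Cd3e was at 0 and Ptprc led, against 3146 UMIs in IELs. The 4 B cell genes had 12, 6 and 32 UMIs, led by Cd74, with Cd79a at 0 in each. Red cells also use carbonic anhydrases, and Hba-a2, the 1 gene of the 5 on the erythroid list with a row, had 0 UMIs in the 3 subclusters. Capillary endothelium uses Car4. Of its 3 genes with a row, Cdh5 and Vwf were at 0 and Pecam1 had 0, 3 and 3 UMIs. Stromal genes had 1, 1 and 0 UMIs, tuft cell genes had 0, 4 and 0, and the enteroendocrine gene Chgb had 0 throughout.

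The colonic epithelium recovers salt and water from the lumen through its surface cells and secretes chloride from cells of the crypt, and goblet cells add mucus and fluid. Carbonic anhydrase supplies bicarbonate and protons, the exchanger Slc26a3 trades bicarbonate for luminal chloride, and water follows through the cell layer and through aquaporins. The sodium pump on the basolateral face keeps the gradients on which these steps depend, Slc12a2 on the same face loads cells with chloride for secretion, and potassium channels of the Kcnq1 kind recycle potassium there.

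The 9 genes together took a larger share of UMIs in absorptive precursors than elsewhere in the epithelium. They summed to 730 UMIs there (4810 CPM, 4467 to 5172), to 248 in secretory precursors (1928 CPM, 1695 to 2183) and to 178 in stem cells (2578 CPM, 2213 to 2986). Absorptive precursors stood 2.23-fold (1.98 to 2.52) above the other subclusters combined, or 2.79-fold without Atp1b1, the most counted of the 9. This sum was 2.60-fold in set X1 and 1.48-fold in set X2. The median absorptive precursor had UMIs of 4 of the 9 genes, against a median of 2 in each of the other subclusters. No UMI of any of the 9 was found in 1 of the 42 absorptive precursors, while this held for 5 of the 32 secretory precursors and 4 of the 32 stem cells. That absorptive precursor, of 1536 UMIs, held 6 of the 11 T cell UMIs of its subcluster, 1 Pigr UMI and none of the absorptive list, and the authors also list it among IELs.

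The 9 genes did not share 1 pattern. By a rule of size, a CPM at least 2 times that of the other subclusters together, 4 of the 9 were higher in absorptive precursors, namely Car1, Car2, Slc26a3 and Aqp4. Car2 and Aqp4 are among the genes from which the authors named the absorptive subcluster, so that their excess there restates the label. Among the genes with at least 20 UMIs over the 3 subclusters, 3 of 5 members passed, beside 12.9% of all 3013 such genes. Slc26a3 had 19 UMIs and lay just under that filter. Slc12a2 was the 1 of these 5 that passed in stem cells, where 13.1% of all genes did. None of the 5 passed in secretory precursors, where 9.16% of all genes did. In the other direction, 3 of 5 were lower by 2-fold or more in secretory precursors (18% of all genes), 2 of 5 in stem cells (16.1%; Aqp4, and Car1 at 0.369 with an interval that held 1, 0.0964 to 1.01) and 0 of 5 in absorptive precursors (12.6%). With so few members past the filter, these counts describe the genes and test nothing.

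**Figure D1:**
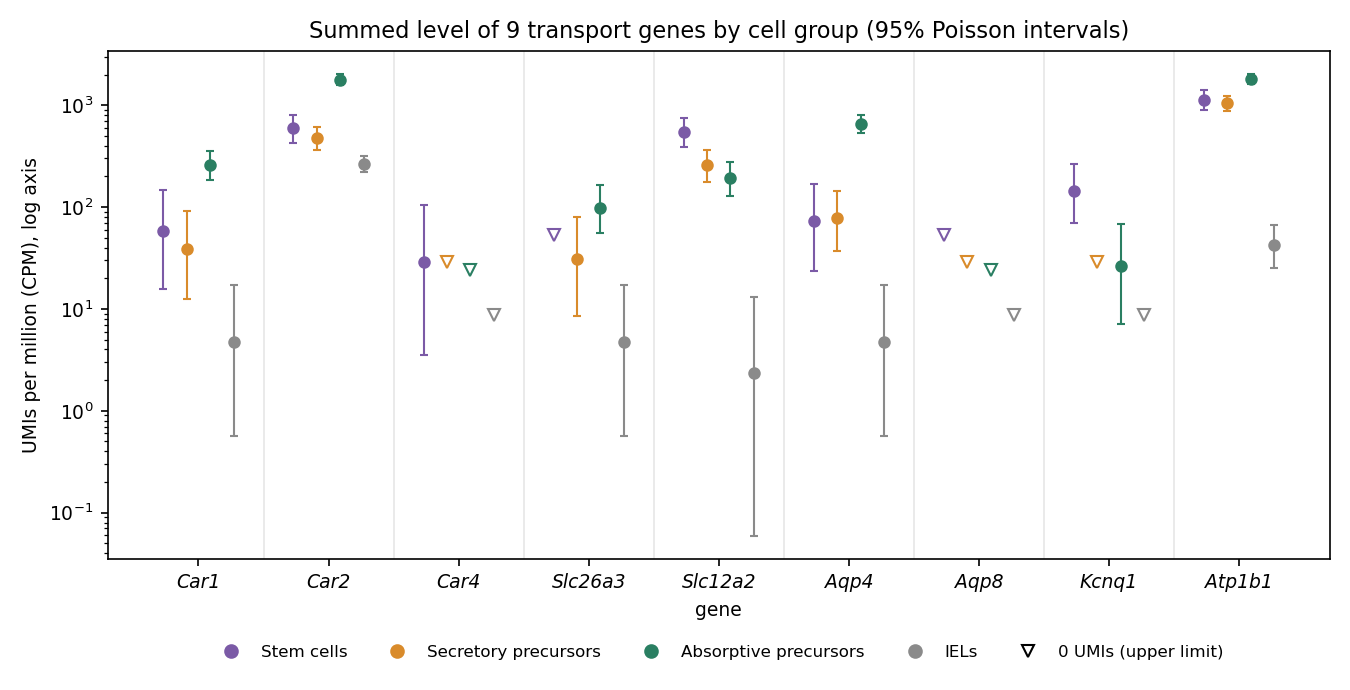
Summed level of each of the 9 genes in stem cells, secretory precursors, absorptive precursors and IELs, as UMIs per 1000000 on a log axis with exact 95% Poisson intervals; open triangles are the upper limits of groups with 0 UMIs. Car1, Car2, Slc26a3 and Aqp4 are highest in absorptive precursors, Slc12a2 and Kcnq1 in stem cells, and Car2 stands at 266 CPM in IELs.

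Among the carbonic anhydrases, Car2 was found in most absorptive precursors. Car2 encodes the fast cytosolic enzyme that turns carbon dioxide and water into bicarbonate and protons. It had 270 UMIs in absorptive precursors (1779 CPM, 1573 to 2004), 61 in secretory precursors (474 CPM, 363 to 609) and 41 in stem cells (594 CPM, 426 to 806). The level in absorptive precursors was 3.45-fold (2.74 to 4.37) that of the other subclusters, 3.75-fold (2.83 to 5.04) that of secretory precursors and 3.00-fold (2.15 to 4.27) that of stem cells. Over both barcode sets, stem cells and secretory precursors did not differ beyond counting error (1.25-fold, 0.822 to 1.89). Absorptive precursors were the high group, as their name, given in part for Car2, implies. Per cell, they held between 0 and 58 Car2 UMIs with a median of 3, and the cell with 58, the deepest of its subcluster, gave 21.5% of the sum.

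The order of the low groups differed between barcode sets. In X1 Car2 stood at 1829 CPM in absorptive precursors, 701 CPM in stem cells and 376 CPM in secretory precursors, and stem cells exceeded secretory precursors there (1.86-fold, 1.01 to 3.33). In X2 the values were 1531, 530 and 943 CPM, so that secretory precursors (4 cells) came before stem cells, and absorptive precursors exceeded secretory precursors by 1.62-fold with an interval that held 1 (0.932 to 2.91). The fold over the other subclusters together was 4.16 in X1 and 2.28 in X2. Secretory precursors against the other subclusters stood at 0.337 in all cells and at 1.05 (0.606 to 1.74) in X2, where the lower level of secretory precursors was thus not seen.

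Car2 UMIs were found in 39 of 42 absorptive precursors (92.9%, 80.5 to 98.5), 19 of 32 stem cells (59.4%, 40.6 to 76.3) and 16 of 32 secretory precursors (50%, 31.9 to 68.1). When each cell was thinned to 800 UMIs, which left out 6, 9 and 3 cells of these groups as too shallow, the shares were 70.6%, 48.0% and 22.6%. In IELs, Car2 was found in 56 of 362 cells (15.5%, 11.9 to 19.6), or 13.9% after thinning, which left out 98. The median depth was 1606.5 UMIs over the 3 subclusters and 1038 in IELs. Before thinning each subcluster lay above the lymphocytes. At equal depth the secretory share rests on few of 29 cells, and no difference from IELs is read from it.

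Car2 was also found in more lymphocytes than the other members. IELs held 113 Car2 UMIs (266 CPM, 219 to 320), and the 3 subclusters together stood 4.01-fold (3.24 to 4.99) above them, against 32.9-fold (20.6 to 56.0) for Atp1b1. There were 71.2 Car2 UMIs for each 1000 of Pigr in the subclusters and 5947 in IELs, where Pigr had 19 UMIs. Of the 56 IELs with Car2, 54 had a UMI of Cd3d, Cd3e, Cd3g or Cd7, 3 had one of Pigr, Krt8 or Krt19, and 27 had at least 2 Car2 UMIs. Car2 stood 1.95-fold (1.28 to 3.04) higher in natural IELs (337 CPM) than in induced IELs (173 CPM), and the 47 B cells had 7 Car2 UMIs (91.2 CPM, 36.7 to 188).

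Car1, a slower cytosolic enzyme of the same family that is abundant in colonocytes, was found in fewer cells. It had 39 UMIs in absorptive precursors (257 CPM, 183 to 351), 5 in secretory precursors (38.9 CPM, 12.6 to 90.7), 4 in stem cells (57.9 CPM, 15.8 to 148) and 2 in IELs (4.70 CPM). The fold of absorptive precursors over the other subclusters was 5.64 (2.69 to 13.3), with 6.61 (2.60 to 21.5) over secretory precursors and 4.44 (1.60 to 17.1) over stem cells. Car1 was thus highest where Car2 was. The low groups did not differ beyond counting error (1.49-fold, 0.296 to 6.93).

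Few cells carried this signal. Car1 was found in 10 of 42 absorptive precursors (23.8%, 12.1 to 39.5; 21.4% after thinning), 2 of 32 stem cells (6.25%, 0.766 to 20.8) and 1 of 32 secretory precursors (3.12%, 0.0791 to 16.2), against 2 of 362 IELs (0.552%). The deepest absorptive precursor held 18 of the 39 UMIs, or 46.2%, and without it the fold was 3.59. Another 6 UMIs lay in 3 barcodes of a family of 4 barcodes that differed at 1 base, so that the joined cells with Car1 were 8 of 38. Without the cells that the authors also list as IELs, the fold was 2.57 (1.01 to 7.07). All 5 UMIs of secretory precursors came from 1 cell of 12713 UMIs, without which the fold was 11.9. Averaging the CPM of single cells, which weighs shallow and deep cells alike, gave a fold of 10.3, and thinning gave 9.24. That cell recurs below, since it also held 3 Slc26a3, 8 Aqp4 and 24 Atp1b1 UMIs.

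Car4, the carbonic anhydrase anchored to the outer face of the membrane, was close to absent. It had 2 UMIs in the 3 subclusters, both in 1 stem cell of 3725 UMIs from set X2, which also held 3 of the 4 Car1 UMIs of its subcluster. Car4 was found in 0 of 42 absorptive precursors, which allows a share of cells with a UMI of up to 7.14%, taken as 3 cells of the total (8.41% by the exact interval), in 0 of 32 secretory precursors (9.38%, exact 10.9%) and in 0 of 362 IELs (0.829%, exact 1.01%). No fold was given at these counts. Without that stem cell, the Car1 fold of absorptive precursors was 8.31.

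Car1 and Car2 are neighbors in the genome. In the mouse annotation on GRCm38, Car13, Car1, Car3 and Car2 lie in this order on chromosome 3 within 259044 bases, and these 4 are the protein-coding genes of that stretch. Car13 had 9 UMIs and Car3 had 0 in the 3 subclusters. Of the 14 carbonic anhydrases on a list of transport genes, 12 had a row, Car1 and Car2 were the 2 with at least 20 UMIs, and Car3, Car5b and Car7 were at 0. Car1 and Car2 thus held most of the carbonic anhydrase UMIs counted in these cells. Car8, which has lost the enzyme activity of the family, had 17 UMIs and was highest in secretory precursors (5.58-fold, 1.72 to 23.5).

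Slc26a3 exchanges luminal chloride for bicarbonate on the apical face and was highest in absorptive precursors. It had 15 UMIs there (98.8 CPM, 55.3 to 163), 4 in secretory precursors (31.1 CPM, 8.47 to 79.6), 0 in stem cells and 2 in IELs, both in 1 cell. The fold of absorptive precursors over the other subclusters was 4.88 (1.56 to 20.2), and over secretory precursors it was 3.18 (1.01 to 13.2). The latter was not detectable in either set alone (2.74 in X1, 0.846 to 11.5; lower limit 0.164 in X2). With stem cells at a floor of 3 UMIs over the group the fold over them was 2.27, and its exact lower limit was 1.63. In X1 alone these were 0.881 and 0.620, so that no difference from stem cells was detectable there. The 15 UMIs were spread over 10 of 42 cells (23.8%, 12.1 to 39.5; 11.6% after thinning), with no more than 3 in any cell. In stem cells it was found in 0 of 32 cells, which allows up to 9.38% (exact 10.9%). It was found in 2 of 32 secretory precursors (6.25%) and 1 of 362 IELs (0.276%). Of the 4 secretory UMIs, 3 came from the cell that held all secretory Car1, and without it the fold was 18.3. Across the alternatives the fold lay between 3.40 and 18.3, and it was 15.6 in the 88 cells deep enough to be thinned. In X2 the gene had 2 UMIs in absorptive precursors and 0 in the other subclusters, so that the comparison with both together rested on X1 (3.40-fold, 1.05 to 14.3).

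The sequences upstream of Slc26a3 and Atp1b1 were read, as these were the members with a promoter entry that had UMIs in more than 1 subcluster. The 250 bases before the start site come from RefSeq on GRCm38.p6, where 4 of the 9 members had an entry. Car1, Car2, Slc12a2, Aqp4 and Kcnq1 had none. The Slc26a3 sequence lies at chr12:31437969-31438218 on the plus strand, within the annotated Slc26a3 gene. Longer transcripts that start further upstream span it, all but 2 of its bases lie outside annotated exons, and these 2 belong to the untranslated part of an exon. Capitals mark matches to 4 short motifs searched on both strands, the TATA box TATAAA, the GC box GGGCGG, the KLF core CACCC and the TCF/LEF core CTTTGA.
Slc26a3: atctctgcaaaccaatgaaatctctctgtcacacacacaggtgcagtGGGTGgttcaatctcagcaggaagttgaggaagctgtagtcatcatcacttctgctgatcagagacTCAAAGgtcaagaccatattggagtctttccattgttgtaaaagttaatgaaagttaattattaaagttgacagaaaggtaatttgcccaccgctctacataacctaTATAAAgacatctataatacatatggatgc
Atp1b1: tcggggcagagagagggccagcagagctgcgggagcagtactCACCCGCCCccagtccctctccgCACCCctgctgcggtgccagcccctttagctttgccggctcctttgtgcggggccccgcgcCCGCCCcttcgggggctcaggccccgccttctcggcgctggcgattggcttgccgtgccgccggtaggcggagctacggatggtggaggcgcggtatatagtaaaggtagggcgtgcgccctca

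The windows differed in base composition and in the motifs found. The Slc26a3 window is 38.8% G and C, with a TATA box that starts at -30 from the start site, a TCF/LEF core at -137 and a KLF core at -203. The Atp1b1 window, at chr1:164458356-164458605 on the minus strand and outside annotated genes, is 70.4% G and C. It has GC boxes at -205 and -124 and KLF cores at -208 and -185, and the GC box at -205 shares 2 bases with a KLF core. Of all 32851 promoters of this length, 12.4% hold the TATA box, 32.7% the GC box, 52.0% the KLF core and 13.8% the TCF/LEF core. A match describes the letters and does not show that a factor binds.

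Relatives of Slc26a3 that handle anions and bicarbonate were split between subclusters. Slc26a2, a sulfate and anion exchanger of the same family, was 2.61-fold (1.88 to 3.65) higher in absorptive precursors, and Slc4a4, which carries sodium with bicarbonate across the basolateral face, was 3.91-fold (1.70 to 10.1) higher. Slc4a7, an electroneutral sodium bicarbonate carrier, was instead 2.08-fold (1.32 to 3.28) higher in secretory precursors. These were the 3 of the 11 exchangers on the list with at least 20 UMIs. The sodium-proton exchanger Slc9a3 of the apical face, its scaffold Pdzk1 and the anion exchanger Slc26a6 had 0 UMIs in the 3 subclusters.

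Slc12a2 takes up sodium, potassium and chloride across the basolateral face and showed the opposite order. Stem cells held 38 UMIs (550 CPM, 389 to 755), secretory precursors 33 (256 CPM, 177 to 360) and absorptive precursors 29 (191 CPM, 128 to 274). Stem cells stood 2.49-fold (1.62 to 3.79) above the other subclusters and 2.15-fold (1.31 to 3.53) above secretory precursors, and absorptive precursors were at 0.347 (0.207 to 0.578) of the stem cell level. Secretory and absorptive precursors did not differ beyond counting error (0.745, 0.436 to 1.27).

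The counts were spread over many cells, with no more than 6 Slc12a2 UMIs in any of them. The gene was found in 19 of 32 stem cells (59.4%, 40.6 to 76.3), 15 of 32 secretory precursors (46.9%, 29.1 to 65.3) and 14 of 42 absorptive precursors (33.3%, 19.6 to 49.5). After thinning the shares were 35.9%, 23.2% and 12.1%, in the same order. IELs had 1 UMI in 362 cells (0.276%). The stem cell excess was seen in X1, where the fold over the other subclusters was 4.00 (2.20 to 7.02), and was not detectable in X2 (1.10, 0.552 to 2.20).

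Other genes of chloride secretion were measured beside it. Cftr, the apical chloride channel, was 2.77-fold (1.34 to 5.59) higher in stem cells and stood at 0.151 (0.0298 to 0.482) in secretory precursors. Best2, an anion channel of goblet cells, was 2.67-fold (1.08 to 6.99) higher in secretory precursors. Ano1, a calcium-activated chloride channel, was 1.95-fold (0.948 to 4.15) higher in absorptive precursors, with an interval that held 1. Without cells above 10000 UMIs its fold was 4.10 (1.31 to 17.0) on 19 UMIs, and without the cells listed among IELs it was 2.20 (0.926 to 5.48). In absorptive precursors Cftr stood at 1.37 (0.683 to 2.78), with an interval that held 1, and Slc12a2 at 0.532 (0.333 to 0.830). Slc12a2 and Cftr were thus both above 1 in stem cells, while their absorptive values differed. Over all 3 subclusters these genes had between 23 (Best2) and 100 UMIs (Slc12a2).

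Aqp4, a water channel of the basolateral face and another of the genes behind the absorptive label, was far higher in absorptive precursors. It had 99 UMIs in absorptive precursors (652 CPM, 530 to 794), 10 in secretory precursors (77.7 CPM, 37.3 to 143), 5 in stem cells (72.4 CPM, 23.5 to 169) and 2 in IELs (4.70 CPM). Absorptive precursors stood 8.60-fold (4.97 to 15.9) above the other subclusters, 8.39-fold (4.38 to 18.0) above secretory precursors and 9.01-fold (3.73 to 28.4) above stem cells. The low groups did not differ beyond counting error (0.932, 0.25 to 2.99).

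Aqp4 was also found in most absorptive precursors and few other cells. UMIs were present in 31 of 42 absorptive precursors (73.8%, 58.0 to 86.1), 3 of 32 stem cells (9.38%, 1.98 to 25.0) and 2 of 32 secretory precursors (6.25%, 0.766 to 20.8), against 2 of 362 IELs (0.552%). After thinning, the shares were 37.9%, 0.696% and 1.79%, with 0.265% in IELs. The contrast between cell groups therefore held at equal depth. A deep absorptive precursor gave 26 of the 99 UMIs (26.3%), and the fold without it was 7.35.

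The size of the Aqp4 fold depended on a small number of cells outside the absorptive group. The secretory precursor of 12713 UMIs held 8 of the 10 secretory UMIs, and the deepest stem cell held 3 of 5. Without that secretory cell the fold was 17.2, without cells above 10000 UMIs it was 37.7, and after thinning it was 37.9. It was 9.20 (4.77 to 19.9) in X1 and 5.67 (1.82 to 20.8) in X2, above 1 in each.

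Aqp8, the other water channel of the group, had no UMI in the 3 subclusters. It was found in 0 of 42 absorptive precursors, which allows a share of cells with a UMI of up to 7.14% (exact 8.41%), in 0 of 32 cells of each of the other subclusters (9.38%, exact 10.9%) and in 0 of 362 IELs (0.829%, exact 1.01%). The limit of its level over the 3 subclusters was 8.58 CPM at 3 UMIs (exact 10.6 CPM). At this depth Aqp8 was thus not detectable in the cells with an epithelial label. Of the 8 aquaporins on the list 6 had a row, Aqp4 was the 1 with at least 20 UMIs, and Aqp3 and Aqp7 were at 0 together with Aqp8.

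Kcnq1 forms the pore of a potassium channel that works with Kcne3 on the basolateral face. It had 10 UMIs in stem cells (145 CPM, 69.5 to 266), 4 in absorptive precursors (26.4 CPM, 7.18 to 67.5), 0 in secretory precursors and 0 in IELs. Stem cells stood 10.2-fold (2.93 to 44.4) above the other subclusters, and 6.21-fold above secretory precursors taken at 3 UMIs over the group, with an exact lower limit of 4.18 (0.605 in X2). Absorptive precursors were at 0.182 (0.0417 to 0.631) of the stem cell level. Kcnq1 was thus highest in the stem cells as the authors drew them, on few counts.

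The UMIs of Kcnq1 came from 6 of 32 stem cells (18.8%, 7.21 to 36.4; 10.8% after thinning) and 4 of 42 absorptive precursors (9.52%, 2.66 to 22.6; 2.06% after thinning). It was found in 0 of 32 secretory precursors, which allows up to 9.38% (exact 10.9%), and in 0 of 362 IELs, which allows up to 0.829% (exact 1.01%). With the authors' groups the stem cell fold was 18.1 (2.60 to 200.3) in X1. In X2 it was 3.30 with an interval that held 1 (0.591 to 33.5). When the cells were grouped again without the transport genes, the fold was 2.48. The group that matched stem cells then held 4 Kcnq1 UMIs (82.4 CPM, 22.4 to 211). The group that matched absorptive precursors held 7 (46.3 CPM, 18.6 to 95.4), and these intervals overlap. The size of the stem cell excess thus depended on how the groups were drawn. The gene overlaps the antisense RNA Kcnq1ot1, which had 18 UMIs in the same cells, and whether the counting separated strands is not given in the sources used here.

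The partner and a relative of Kcnq1 were counted more often. Kcne3 had 100 UMIs and was lowest in secretory precursors (0.352, 0.196 to 0.597), with 1.66-fold (1.04 to 2.59) in stem cells and 1.53-fold (1.01 to 2.32) in absorptive precursors, each against the other subclusters. The absorptive interval held 1 without cells above 10000 UMIs (1.13, 0.677 to 1.88) and without the cells listed among IELs (1.51, 0.902 to 2.54). Kcnn4, a potassium channel opened by calcium, was 4.87-fold (1.93 to 12.6) higher in stem cells on 22 UMIs. It had 13 UMIs without the cells listed among IELs and 16 without those above 10000 UMIs, where its stem cell fold was not taken. Both genes were thus above 1 in stem cells, as Kcnq1 was.

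Atp1b1 encodes the beta subunit that carries the sodium pump to the membrane, and it was found throughout the epithelium. It had 274 UMIs in absorptive precursors (1805 CPM, 1598 to 2032), 135 in secretory precursors (1049 CPM, 880 to 1242) and 78 in stem cells (1130 CPM, 893 to 1410). The fold of absorptive precursors over the other subclusters was 1.68 (1.40 to 2.01), with 1.72 (1.40 to 2.13) over secretory precursors and 1.60 (1.24 to 2.08) over stem cells, so that it stayed under the 2-fold rule. The low groups did not differ beyond counting error (1.08, 0.804 to 1.43).

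This modest excess was not seen in each barcode set. The fold was 1.96 (1.58 to 2.44) in X1 and 0.911 (0.575 to 1.41) in X2. The deepest absorptive precursor held 75 of the 274 UMIs. The gene was found in 36 of 42 absorptive precursors (85.7%, 71.5 to 94.6) and in 23 of 32 cells of each of the other subclusters (71.9%, 53.3 to 86.3), against 15 of 362 IELs (4.14%, 2.34 to 6.74). After thinning the gene was found in 68.3% of absorptive and 47.0% of secretory precursors, in 59.0% of stem cells and in 2.18% of IELs. Atp1b1 thus separated epithelial cells from lymphocytes far more than it separated the subclusters. It overlaps Nme7 on the opposite strand, which had 42 UMIs.

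A regulator of the pump differed from it. Fxyd3, a small membrane protein, was 7.68-fold (4.63 to 13.4) higher in secretory precursors and stood at 0.123 (0.0548 to 0.244) in absorptive precursors. Atp1b1 and Fxyd3 thus had their highest levels in different subclusters.

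**Figure D2:**
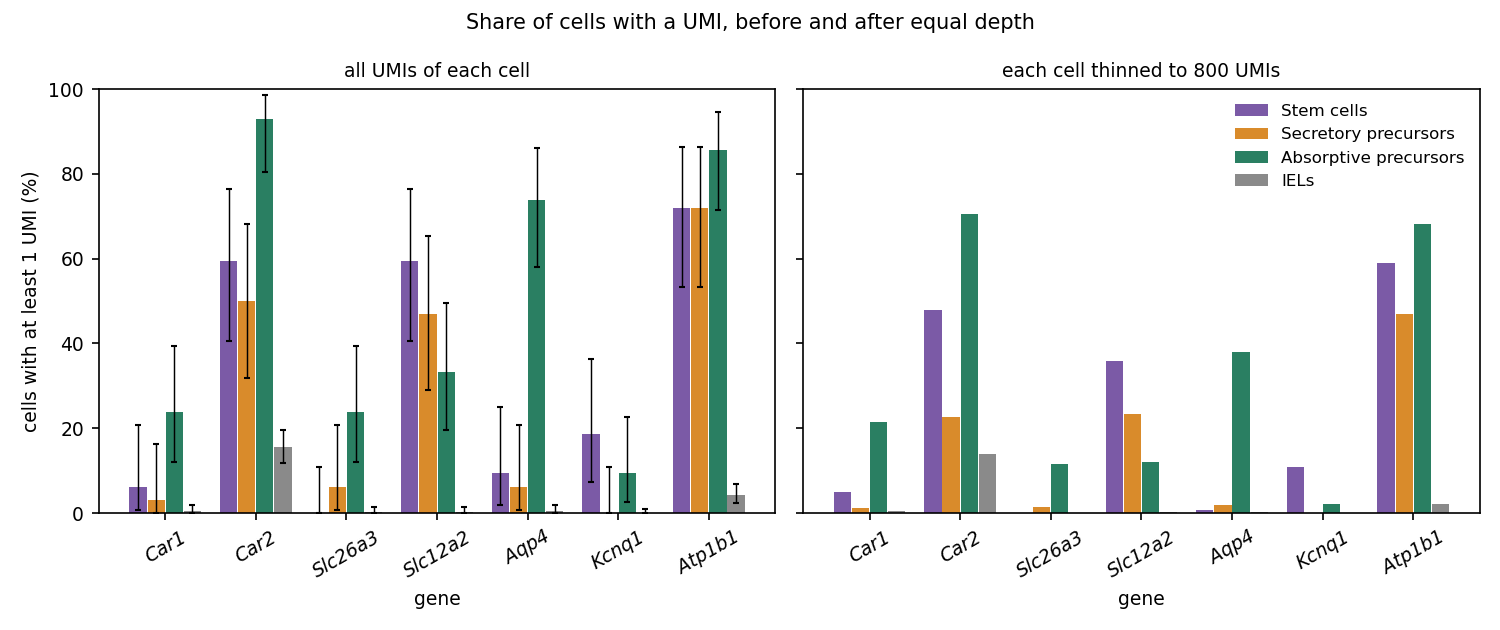
Share of cells with at least 1 UMI of 7 of the genes in each cell group, from all UMIs of each cell with exact 95% Clopper-Pearson intervals (left) and as the mean of 100 draws after thinning each cell to 800 UMIs (right); Car4 and Aqp8, with 2 and 0 UMIs, are not drawn. Aqp4 falls from 73.8% to 37.9% of absorptive precursors at equal depth, and Car2 keeps a share of 13.9% in IELs.

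Within absorptive precursors the genes were found in the same cells to different degrees. Car2 and Aqp4 were found together in 30 cells, which were 76.9% of those with Car2 and 96.8% of those with Aqp4. All 10 cells with Slc26a3 had Car2, and 8 of the 10 had Aqp4. Of the 10 cells with Car1, 9 had Car2, 7 had Aqp4 and 4 had Slc26a3. Of the 14 absorptive cells with Slc12a2, 14 had Car2, 11 had Aqp4, 2 had Slc26a3 and 1 had Car1. Car2 and Aqp4 were in most absorptive precursors, so that sharing a cell with them says little. Cells with more UMIs show more genes, so these counts also follow depth.

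**Figure D3:**
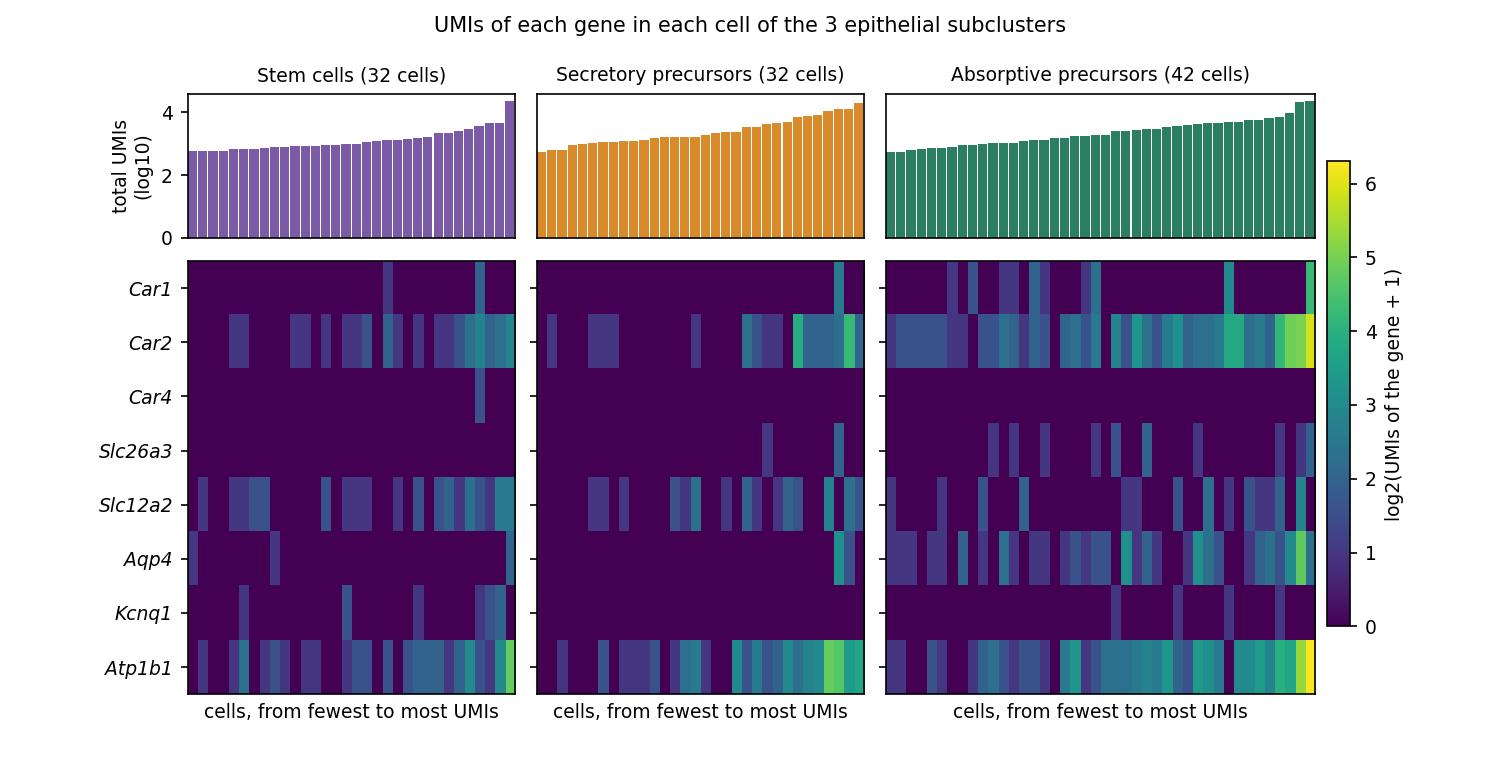
UMIs of 8 of the genes in each cell of the 3 subclusters, ordered within each subcluster from the fewest to the most UMIs, as log2 of the count plus 1 (colors), below the total UMIs of the cell on a log10 scale (bars); Aqp8 had 0 UMIs and is not drawn. Aqp4 runs through the absorptive precursors at all depths, while Car1 and Slc26a3 appear in 10 of 42 cells each.

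Correlations across cells were taken at equal depth, over the 88 cells with at least 800 UMIs and 402 candidate genes with at least 100 UMIs, for the 4 members with at least 50. Cells share their libraries, and the values are descriptions. The genes most like Aqp4 were 2200002D01Rik (mean Spearman 0.423), Gsdmc4 (0.423) and AA467197 (0.408). Those most like Car2 were 2200002D01Rik (0.396), Lgals3 (0.341) and Hao2 (0.329). Gsdmc4 and Lgals3 also served to name the absorptive subcluster. These 5 genes all stood highest in absorptive precursors, as in 2200002D01Rik with 1838 CPM against 210 CPM in secretory precursors and 290 CPM in stem cells. For Atp1b1 the values were lower, with Selenbp1 (0.260), Lypd8 (0.229) and Prdx6 (0.211) first. For Slc12a2 they were lower still for Glul (0.192) and Cd24a (0.191), behind Anp32b (0.248), a gene of the stem and proliferation list. Between members, Car2 and Aqp4 reached 0.251 and Slc12a2 and Aqp4 stood at -0.114. Weak values of this kind in sparse counts are no finding.

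The wider list of transport genes was set beside these patterns. It held 62 genes in 9 roles, of which 55 had a row and 20 had at least 20 UMIs. By the 2-fold rule, 7 of the 20 were higher in absorptive precursors, where 12.9% of all genes were, and they were Car1, Car2, Aqp4, Slc26a2, Slc4a4 and the monocarboxylate transporters Slc16a1 (10.1-fold, 3.57 to 39.4) and Slc5a8 (6.08-fold, 3.45 to 11.4), which take up short-chain fatty acids. Slc16a1 fell under the filter without the cells listed among IELs (19 UMIs, 12.5-fold) and without those above 10000 UMIs (18 UMIs, 18.6-fold), and was not counted there. In the other direction, 4 of the 20 were lower there, beside 12.6% of all genes, namely Best2 (0.460), Fxyd3 (0.123), Kcnn4 (0.289) and Guca2b (0.276). The Best2 interval held 1 (0.148 to 1.22). Without cells above 10000 UMIs, Best2 (14 UMIs) and Kcnn4 (16 UMIs) fell under the filter. Kcnn4 also did so without the cells listed among IELs (13 UMIs), where it stood at 0.267 with an interval that held 1 (0.0288 to 1.22). Guca2b stood at 0.105 without the cells listed among IELs and at 0.0912 without those above 10000 UMIs. The median log2 fold of the 20 genes was 0.54, against 0.11 for all 3013 genes. Car1, Car2 and Aqp4 are members already counted above. Outside absorptive precursors, Slc16a1 had 4 UMIs, Slc4a4 8, Car1 9, and Aqp4 and Slc5a8 15 each. These genes passed the filter only through the group where they are high. The list was also chosen with earlier results of these data known, so that its counts and medians are descriptions and test nothing.

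In the other subclusters the list had genes on both sides. Its median log2 fold was -0.69 in stem cells, against -0.04 for all genes, and -0.62 in secretory precursors, against -0.26. Of the 20, 8 were lower by 2-fold or more in stem cells (16.1% of all genes) and 9 in secretory precursors (18%). In the other direction, 3 were higher in stem cells (Slc12a2, Cftr and Kcnn4), close to the 13.1% of all genes, and 5 in secretory precursors, beside 9.16% of all genes (Slc4a7, Best2, Fxyd3, Guca2b and Hsd11b2, 2.38-fold, 1.55 to 3.68). Hsd11b2 inactivates glucocorticoids, which leaves the mineralocorticoid receptor to aldosterone. Its UMIs outside absorptive precursors were 61 in all cells and 23 without cells above 10000 UMIs, so that most lay in a few deep cells. The secretory fold of Hsd11b2 without those cells was not taken. Of the guanylin system, the peptide Guca2b was 4.52-fold (2.19 to 10.0) higher in secretory precursors, its relative Guca2a stood at 1.49 (1.18 to 1.86) in secretory precursors, 0.257 (0.153 to 0.409) in stem cells and 1.19 (0.945 to 1.49) in absorptive precursors, and their receptor Gucy2c was 1.97-fold (1.04 to 3.79) higher in secretory precursors. In X2, 8 of the list's genes had 20 UMIs and 2 of them, Car2 and Kcne3, were 2-fold higher in absorptive precursors, beside 10.5% of all genes with 20 UMIs there.

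**Figure D4:**
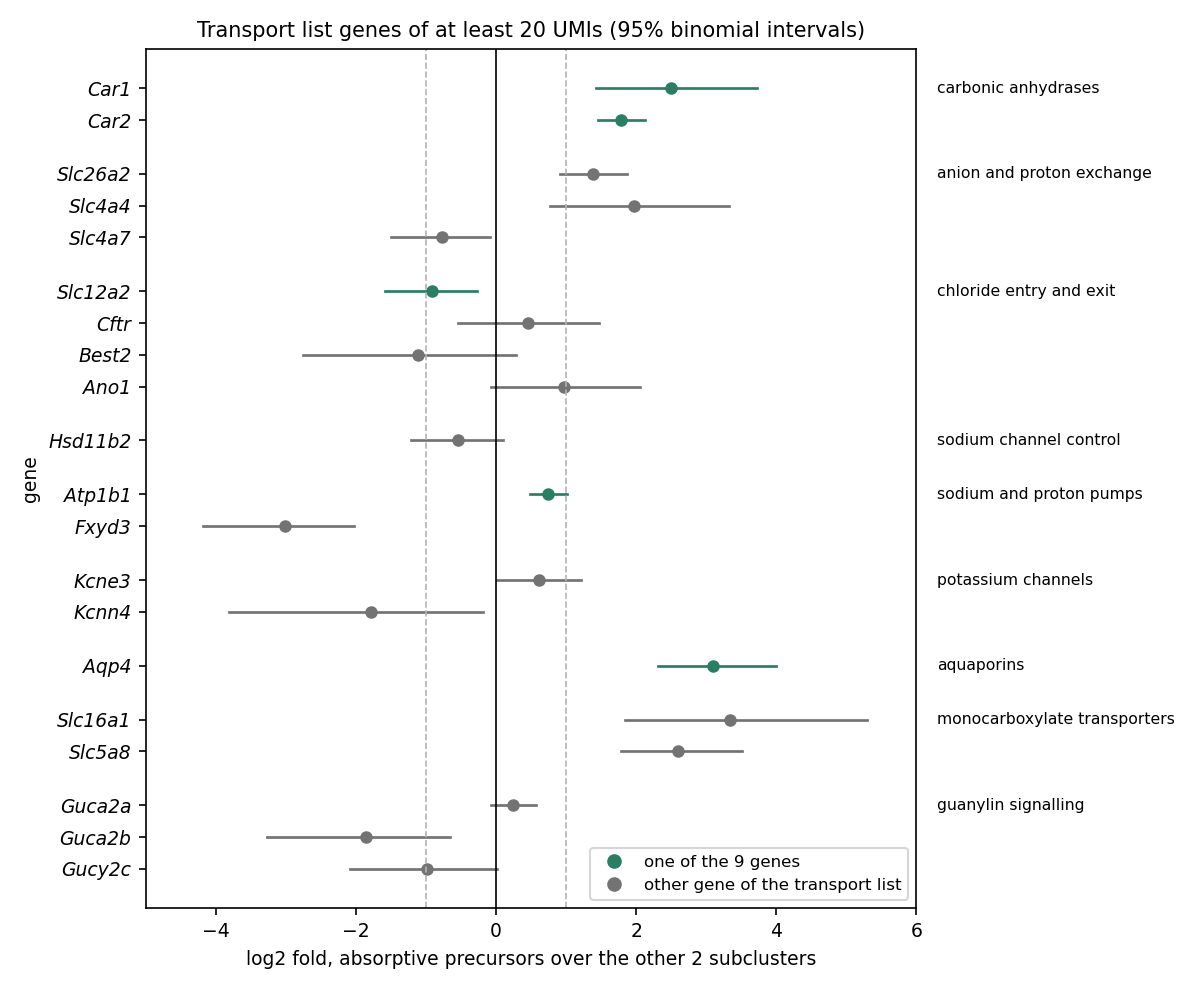
Log2 fold of absorptive precursors over the other 2 subclusters for the 20 genes of the transport list with at least 20 UMIs, grouped by role, with exact 95% binomial intervals; the dashed lines mark 2-fold. Car1, Car2, Slc26a2, Slc4a4, Aqp4, Slc16a1 and Slc5a8 lie beyond 2-fold to the right, and Fxyd3 (0.123-fold) lies farthest to the left.

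A share of the cells carried conflicting labels. The authors' list of all cells placed 14 cells of the 3 subclusters among IELs, of which 6 were stem cells, 3 secretory precursors and 5 absorptive precursors. These 14 had 101715 UMIs with 8 of the T cell genes, and 6 of the 8 lay in the absorptive precursor of 1536 UMIs. The other 92 cells had 247775 UMIs with 4 of the T cell genes. Each cell of the 3 subclusters had at least 1 Pigr UMI. The authors label their epithelial cells Pigr+, so that this may follow from how the cells were chosen and cannot show whether the 14 differ. The 5 absorptive precursors so listed, which include the deepest, held 25 of the 39 Car1 UMIs, 105 of the 270 Car2 UMIs and 118 of the 274 Atp1b1 UMIs. Car1 stood at 486 CPM in these 5 and at 139 CPM in the other 37.

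Leaving out the 14 cells lowered several folds and turned none of those of the 4 absorptive genes. The sum of the 9 genes was then 1.84-fold higher in absorptive precursors. Car1 stood at 2.57-fold and Slc26a3 at 3.67-fold, while Car2 (2.78-fold) and Aqp4 (8.44-fold) moved less. The 4 genes past the 2-fold rule were the same 4, beside 14.3% of all genes with at least 20 UMIs in the cells left. What the conflicting labels contribute was not tested.

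The subclusters themselves were drawn with these genes among the rest. When the cells were grouped again by k-means with the 9 genes and the transport list left out, 74 cells (69.8%) fell into the matching group. The same 4 genes passed the 2-fold rule in the group that matched absorptive precursors, beside 11.6% of all genes with at least 20 UMIs. Car1 stood there at 258 CPM, Car2 at 1772 CPM, Slc26a3 at 92.6 CPM and Aqp4 at 575 CPM. The Aqp4 fold was 4.22, and Slc12a2 stood at 638 CPM in the group that matched stem cells, 2.78-fold above the rest. The group that matched stem cells held 25 of the authors' stem cells, with 13 secretory and 10 absorptive precursors. Other genes behind the absorptive label, such as Gsdmc4 and Lgals3, were not left out, and groups were named by their best match to the authors' labels. The pass of these 4 genes may therefore restate the labels and is no independent support.

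**Figure D5:**
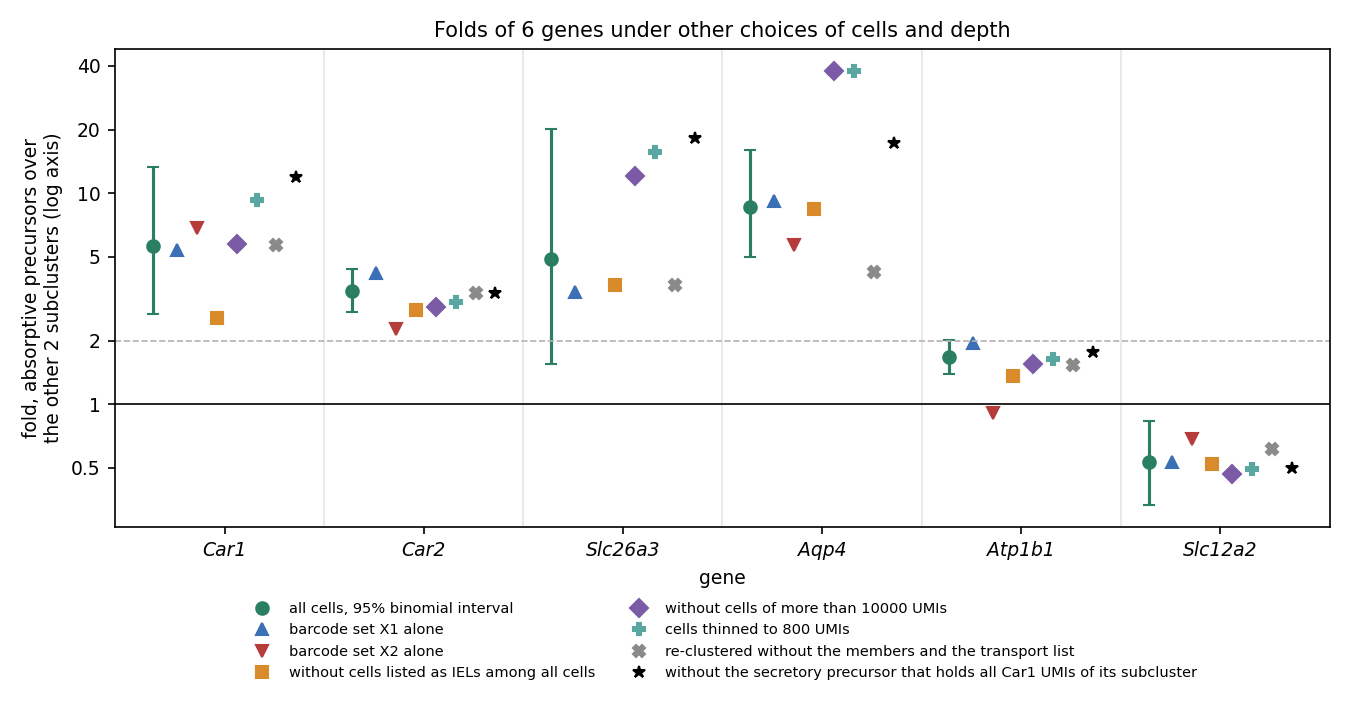
Fold of absorptive precursors over the other 2 subclusters for 6 of the genes on a log axis, from all cells with the exact 95% binomial interval (circles) and under 7 other choices of cells, depth or groups (other symbols); no symbol is drawn where the compared cells had 0 UMIs. Car1, Car2, Slc26a3 and Aqp4 stay above 2 in each choice drawn, Atp1b1 lies between 0.911 and 1.96, and Slc12a2 stays below 1.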

How the data were processed

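The 2 pools of sorted crypt cells were sequenced as Drop-seq libraries. The authors ran the Drop-seq pipeline to count UMIs. STAR 2.5.0, Picard 1.137 and both hg19 and mm10 are named in the submitters' processing notes. The values are raw UMI counts as deposited, without normalization, for 19294 symbols and 1117 barcodes in 1 matrix, and 0 per-sample columns were left unused. The annotation and the joining of UMIs are not given in the sources used here. For its trajectories, the paper kept cells that express Pigr and lack T cell markers. It also mentions several filtration steps, whose thresholds are not given in the sources used here. Barcodes were joined to the authors' cluster table. Doublets were neither called nor removed here, and their treatment by the authors is not given in the sources used here. The 3 subclusters held 32, 32 and 42 barcodes, IELs 362, B cells 47 and no cluster 601.

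Each level was a sum of UMIs per 1000000 (CPM), and its interval was an exact Poisson one, shares of cells had Clopper-Pearson intervals, and folds had exact binomial intervals on the UMIs. A group at 0 UMIs was taken at a floor of 3, and the share that 0 cells allow as 3 cells of the total, with the exact limits beside them. Size rules applied to genes with at least 20 UMIs, except where the 9 members are counted whole. Thinning took 800 UMIs per cell in 100 draws, and likeness used the mean of 20 draws. The re-clustering used counts scaled to 10000 per cell on a log scale, the 1000 most variable genes seen in at least 3 cells, 5 principal components, and 50 restarts of k-means into 3 groups. Named genes were the 9 members, each list gene with at least 20 UMIs, list genes at 0 and, for each member with at least 50 UMIs, the 3 most correlated genes; Car8 and Car13 were named after their values were seen. Of the planned transport list, 1 gene is not reported here and was left out of its counts. The members and lists were chosen with earlier results of these data known. Alternatives were each barcode set alone, other choices of cells, levels, totals, groups, fold rules and filters. Positions came from GENCODE M21, which holds 18604 of the symbols (96.4%). Erythroid, endothelial, stromal and enteroendocrine lists lacked rows for some genes. The computation was tested on simulated data. Python 3.11.15, numpy 2.4.6, scipy 1.17.1, pandas 2.3.3, scikit-learn 1.9.0 and matplotlib 3.10.9 were used. Stainings, sorts and human cells were not used here.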

Additional observations from a re-analysis of the deposited data

Results flagged for a closer look

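Barcodes that the authors placed in no cluster held UMIs of 8 of the 9 genes, in data that the comparisons above do not use. These 601 barcodes had a median of 212 UMIs, with 36.8% of all UMIs from mitochondrial genes. They held 47 Car1 UMIs, 57 of Car2, 4 of Car4, 11 of Slc26a3, 11 of Slc12a2, 18 of Aqp4, 5 of Aqp8 and 49 of Atp1b1, each above the limit of 3 that a count of 0 allows, and 0 of Kcnq1.

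Aqp8 and Car4, which mature surface colonocytes express, were counted more often there than in the 3 subclusters (5 against 0 UMIs, and 4 against 2). The Aqp8 UMIs lay in 3 barcodes, and 3 of the 5 in 1 barcode of 1967 UMIs that also held 1 Car1, 2 Car2, 5 Slc26a3, 2 Aqp4, 42 Lypd8, 28 Guca2a and 5 Krt20 UMIs, with 19.8% of its UMIs from mitochondrial genes. Of the 47 Car1 UMIs, 25 lay in 1 barcode of 343 UMIs, which had 0 UMIs of the other 8 genes, 0 of Pigr and 0.583% mitochondrial UMIs. The other barcodes with Car1 were 10.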

How the results depend on the processing

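No paired analysis was possible because the cells could not be assigned to the pools. The sum of the 9 genes was 2.23-fold higher in absorptive precursors. It was 2.60-fold in set X1, 1.48-fold in X2, 1.84-fold without the 14 cells listed among IELs and 2.79-fold without Atp1b1, and under the remaining alternatives it stayed inside its interval. The count of list genes 2-fold higher in absorptive precursors was 7 of 20 (12.9% of all genes), and became 2 of 8 in X2 (10.5%), 12 of 46 with at least 1 UMI (12.5%) and 4 of 11 with at least 50 UMIs (11.2%). It was 8 of 19 in X1 (16.4%), 6 of 16 without deep cells (17.3%), and 9 of 20 with the mean of cells' CPM (19.2%) and with thinning (18.4%), and 7 or 8 under the others. The 7 without the cells listed among IELs include Ano1 and not Slc16a1, which was then under 20 UMIs, as it was without deep cells. The count of members was 4 in all cells (12.9% of all genes with at least 20 UMIs) and 3 in X2 (10.5%). It was 5 by a 1.5-fold rule, for which no share of all genes was taken, and 4 under the others. The secretory level of Car2 over the other subclusters turned from 0.337 to 1.05 in X2, where the group is 4 cells; the cause was not tested. Of 220 folds of single genes under the alternatives, 197 stayed inside their interval, 9 lay above it and 14 below. Of 136 folds past the 2-fold rule, 8 kept their direction but no longer passed it, and the Car2 value above turned. The 8 were Car1 in stem cells (0.369 in all cells) without the cells listed among IELs (0.80), without deep cells (0.747), after re-clustering (0.563) and without the cell with the most Car1 (0.573), Aqp4 in stem cells in X2 and after re-clustering, Slc12a2 in stem cells in X2, and Slc26a3 in secretory precursors without the cells listed among IELs. Other folds that crossed 1 had not passed the rule: in X2, Atp1b1 (0.911 in absorptive and 1.31 in secretory precursors) and Slc12a2 (1.26 in secretory precursors), and after re-clustering Kcnq1 (1.31 in absorptive precursors). Of 21 shares of absorptive precursors under thinning, at least 2 UMIs or joined barcodes, 9 stayed inside their interval and 12 were lower. X2 gave no value for Slc26a3, whose other groups were at 0. Leaving out the secretory precursor with all secretory Car1, and the stem cell with all Car4, was chosen after seeing the data. Depth limits Car4, Slc26a3, Aqp8 and Kcnq1, each under 20 UMIs in the 3 subclusters.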

Other observations

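Beyond the epithelium, natural IELs held 14 Atp1b1 UMIs (58.3 CPM, 31.9 to 97.9) and induced IELs 4 (21.6 CPM, 5.89 to 55.3), a 2.70-fold difference with an interval that held 1 (0.848 to 11.3). Car2 was found in 39 of 187 natural IELs (20.9%, 15.3 to 27.4) and 17 of 175 induced IELs (9.71%, 5.76 to 15.1). The most Car2 UMIs in 1 IEL were 8. Of the 306 IELs without Car2, 4 had a UMI of Pigr, Krt8 or Krt19.

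The 7 families of barcodes that differed at 1 base held 20 barcodes. The largest by UMIs, 2 absorptive barcodes with 24743 UMIs, held 18 Car1, 61 Car2 and 80 Atp1b1 UMIs.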
